A study of Mus musculus with 8 samples.

Results

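The genes described are 44 genes of DNA replication and mitosis, listed by name and divided by role into 10 genes of G1 entry, 15 of DNA replication and 19 of mitosis. All 44 had a probe on the array, found by gene symbol through the probe's transcript accession. Of these, 41 were well above background and were tested, among 13782 genes tested in all. The probes of Cdk6, Ccne2 and Aurkb were not well above background on any array and are given no comparison.

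The samples were neural stem and progenitor cells of the mouse, grown from embryonic stem cells as neurospheres, which are free-floating balls of dividing cells. Cells that overexpress NFIA, a transcription factor known for its part in the start of astrocyte formation, grew together with control cells, and the 2 kinds were parted by fluorescence-activated cell sorting. RNA was measured on 1-colour Agilent microarrays, 1 per sample. The groups, with 2 arrays each, were SN_NFIA (NFIA-overexpressing, from secondary neurospheres at passage 1 and day 12), SN_control (control, also from secondary neurospheres at passage 1 and day 12), PN_NFIA (NFIA-overexpressing, from primary neurospheres at passage 0 and day 6) and PN_control (control, also from primary neurospheres at passage 0 and day 6). The construct and promoter that drive NFIA, and further detail of the embryonic stem cell lines, are not given in the sources used here. The source names give the cell line as WT or as an NFIA line, and these differ from the titles for some arrays, as described below. The labels do not say that the 2 arrays of a group came from separate cultures, so p-values measure the spread between these samples, which may be technical.

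In the cell cycle, D-type cyclins with CDK4 and CDK6, and then E-type cyclins with CDK2, phosphorylate the RB protein and release E2F factors. E2F factors drive genes of DNA replication, such as those of the MCM helicase that unwinds DNA at each origin. Later, a complex of MuvB proteins with B-MYB and FOXM1 drives genes of mitosis through a promoter element called the CHR, often beside CCAAT boxes bound by NF-Y. Neural stem cells divide often, and their division slows as they leave the progenitor state.

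Promoter windows from RefSeq (GRCm38.p6, 250 bases before to 50 after a transcript start) were found for 34 of the 44 genes. They were searched on both strands for the E2F words TTTGGCGC, TTTCCCGC, TTTGCCGC and TTTCGCGC, for the CHR word TTTGAA, and for CCAAT. An E2F word was present in 6 of 12 replication genes (50.0%), 1 of 15 mitosis genes (6.7%) and 2 of 7 G1 genes (28.6%), against 4.4% of 10950 tested genes with a window. The CHR word was present in 11 of 15 mitosis genes (73.3%), 1 of 12 replication genes (8.3%) and 1 of 7 G1 genes (14.3%), against 14.4% of tested genes. CCAAT was present in 13 of 15 mitosis genes (86.7%), 9 of 12 replication genes (75%) and 3 of 7 G1 genes (42.9%), against 42.9% of tested genes. A gene with several windows was counted once, base composition was not matched, and an E2F word and a CCAAT may overlap by some bases. The windows of E2f1, Cdk6, Cdc6, Aurka and Mybl2, and 1 window each of E2f2, Ccnd3 and Mcm7, lie inside the gene's annotated range. For the first of these sets, from E2f1 to Mybl2, the outer end of the gene was not searched. The CHR word counted for the G1 genes is in the inner window of E2f2. Such a match is a description of letters, not a measured binding site.

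**Figure D1:**
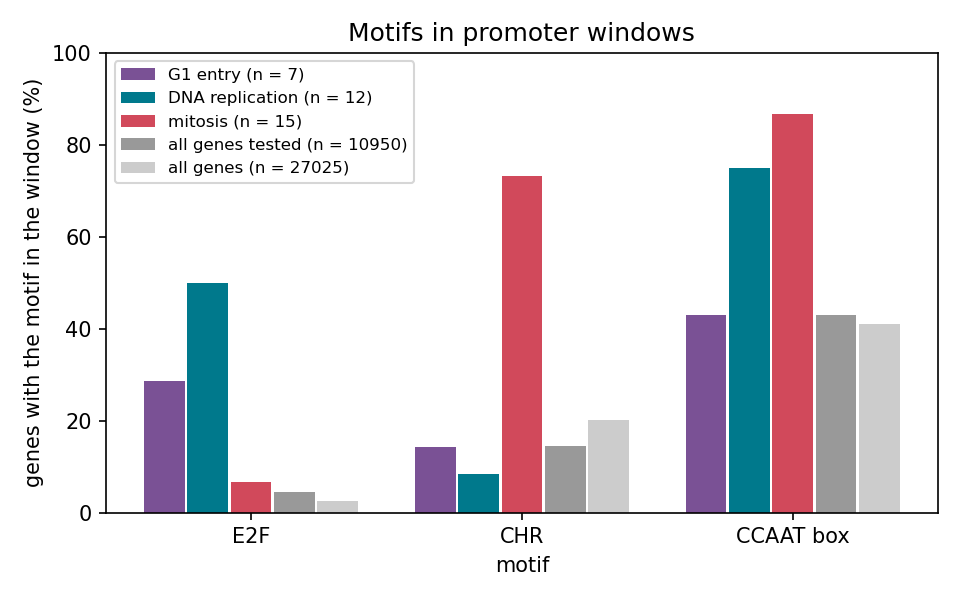
Share of genes (%) whose promoter window holds an E2F word, a CHR word or a CCAAT box, for the genes of each role, for all tested genes and for all genes with a window. The E2F bar of the replication genes (50.0%) and the CHR bar of the mitosis genes (73.3%) stand above the grey bars of tested genes (4.4% and 14.4%).

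The windows of 2 replication genes with E2F words and 2 mitosis genes with CHR words are printed to show this division, from 5′ to 3′ along the gene's strand, with the matched E2F, CHR and CCAAT letters (or their reverse complement) in capitals. Mcm3 lies on the minus strand at chr1:20820263-20820562. Cdt1 lies on the plus strand at chr8:122567765-122568064. Kif11 lies on the plus strand at chr19:37376132-37376431. Top2a lies on the minus strand at chr11:99024140-99024439.
Mcm3: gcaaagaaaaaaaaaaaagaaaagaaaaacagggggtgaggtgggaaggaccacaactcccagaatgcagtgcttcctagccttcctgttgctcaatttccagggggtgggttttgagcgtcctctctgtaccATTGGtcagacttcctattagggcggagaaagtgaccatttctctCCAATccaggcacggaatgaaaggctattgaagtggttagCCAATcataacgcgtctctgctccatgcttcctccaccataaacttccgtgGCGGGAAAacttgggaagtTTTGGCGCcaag
Cdt1: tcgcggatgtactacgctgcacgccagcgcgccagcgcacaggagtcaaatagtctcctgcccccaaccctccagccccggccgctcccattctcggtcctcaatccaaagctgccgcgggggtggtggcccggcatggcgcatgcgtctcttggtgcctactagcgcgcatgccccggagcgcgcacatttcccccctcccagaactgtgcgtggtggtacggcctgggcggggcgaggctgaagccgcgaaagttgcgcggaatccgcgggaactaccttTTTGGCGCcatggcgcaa
Kif11: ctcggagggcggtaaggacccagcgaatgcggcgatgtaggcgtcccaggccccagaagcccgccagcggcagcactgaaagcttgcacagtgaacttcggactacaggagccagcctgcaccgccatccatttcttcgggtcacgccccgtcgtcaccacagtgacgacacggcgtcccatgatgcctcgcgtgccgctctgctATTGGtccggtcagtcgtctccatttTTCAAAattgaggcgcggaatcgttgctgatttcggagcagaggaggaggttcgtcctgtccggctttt
Top2a: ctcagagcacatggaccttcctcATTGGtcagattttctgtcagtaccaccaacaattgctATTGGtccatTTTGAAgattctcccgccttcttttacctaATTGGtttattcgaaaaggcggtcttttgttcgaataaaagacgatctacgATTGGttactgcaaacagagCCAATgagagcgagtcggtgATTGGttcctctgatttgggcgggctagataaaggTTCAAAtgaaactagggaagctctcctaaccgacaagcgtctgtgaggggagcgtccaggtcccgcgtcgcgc

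Before the comparisons, several facts of the arrays bear on all of them. In the check of the labels, the brighter Nfia probe read 1.70 and 1.62 in SN_NFIA, 1.0 and 0.61 in SN_control, -0.24 and 0.93 in PN_NFIA, and -1.30 and -0.30 in PN_control arrays, in log2 of the signal over the array's 75th percentile. Its difference between NFIA and control cells over both passages was 1.0 ± 0.32 (SE, 4 against 4 arrays) and did not pass the test (adjusted p = 0.172). The other Nfia probe read -0.08 and -1.11 in SN_NFIA, -1.68 and -3.19 in SN_control, -1.88 and -0.88 in PN_NFIA, and -3.88 and -2.99 in PN_control arrays. On each probe both NFIA arrays lay above both control arrays within each passage. The mean of the 2 probes did not pass either, at 1.47 ± 0.35 (adjusted p = 0.086), whereas the brighter probe passed with the replicate numbers as a block, at 1.0 ± 0.15 (adjusted p = 0.0451). For 7 of the 8 samples the scanner file attached to the sample and the column of the authors' value table hold different arrays, and arrays are assigned here as in the value table. The source names give WT for 2 arrays titled NFIA (PN_NFIA 1 and SN_NFIA 2) and the NFIA line for all 4 arrays titled control, and groups follow the titles. On the slide the SN arrays share 1 row and the PN arrays the other, and NFIA and control arrays lie in separate columns, so neither passage nor NFIA can be told apart from position. The 2 SN_control arrays correlated at 0.9436 with each other, below the 0.9642 between SN_control 1 and PN_NFIA 2. The other 6 arrays were closest to the other array of their group. Between 45.38% and 56.44% of spots on an array were well above background, and the number of arrays limits the precision.

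All 9 markers of neural stem and progenitor cells, among them Sox1, Sox2 and Nes, were well above background on all 8 arrays. The same held for all 8 pluripotent, all 8 neuron and all 6 oligodendrocyte markers, so detection does not set these cell types apart. With passage 8 of the 9 differences of the stem and progenitor markers were below 0 (57.4% of all genes), with a median of -0.24, and 1 fell. That gene was Pax6, a transcription factor of neural progenitors, at -2.23 and -2.13 in SN_NFIA, -1.89 and -2.73 in SN_control, -0.46 and -0.77 in PN_NFIA, and 0.48 and 0.38 in PN_control arrays. All SN arrays of Pax6 lay below all PN arrays, with a difference of -2.15 ± 0.30 (adjusted p = 0.0161). Fabp7 differed the other way with passage, at 1.33 ± 0.43, and did not pass limma's test (adjusted p = 0.1). The summed signal of the 9 markers was 403 and 667 in SN_NFIA and 282 and 270 in SN_control arrays. It was 262 and 331 in PN_NFIA and 369 and 343 in PN_control arrays, in multiples of the 75th percentile. Of the 9 markers, 0 passed limma's NFIA test over both passages (1.95% of all genes passed), and 0 had an unadjusted p under 0.05 (17.7% of all genes). Of the markers of other cell types, 3 of 7 astrocyte, 2 of 6 oligodendrocyte and 2 of 8 mesenchymal markers tested rose with passage over both cell types, and 1 of 8 neuron and 1 of 8 pluripotent markers fell. Of all genes 3.42% rose and 3.87% fell in that comparison. Among the astrocyte markers that rose, Gfap read -5.85 and -5.72 in PN_NFIA and -6.55 and -6.53 in PN_control arrays, near the level of probes not well above background. Gfap may have been tested only because it is higher in SN arrays. With NFIA over both passages, 1 of 8 mesenchymal and 1 of 4 endoderm markers tested rose, against 1.76% of all genes. The endoderm gene was Sox7, at -5.30 and -5.89 in SN_control and -6.19 and -6.35 in PN_control arrays. That is near the level of the Aurkb probe, which was not well above background on any array. A probe is kept through any 1 group, so Sox7 may have been tested only because it is higher in NFIA arrays. The summed signal of the 8 astrocyte markers, in multiples of the 75th percentile, was 186 and 400 in SN_NFIA, 23.1 and 121 in SN_control, 35.5 and 88.4 in PN_NFIA, and 10.1 and 14.5 in PN_control arrays, with between 4 and 8 markers well above background on an array. The 6 oligodendrocyte markers summed to 20.0 and 106 in SN_NFIA, 12.2 and 394 in SN_control, 6.91 and 7.80 in PN_NFIA, and 8.69 and 9.05 in PN_control arrays, with all 6 above background on every array. Of the other lists, the 8 mesenchymal markers summed to 37.1 and 36.5 in SN_NFIA, 48.7 and 81.7 in SN_control, 18.1 and 19.7 in PN_NFIA, and 7.55 and 4.12 in PN_control arrays. The 8 pluripotent markers summed to 8.46 and 29.3 in SN_NFIA, 25.4 and 44.2 in SN_control, 82.9 and 53.4 in PN_NFIA, and 41.9 and 42.5 in PN_control arrays. In NFIA cells alone 4 of these 8 fell with passage and 0 rose, with a median of -2.25 (1.34% of all genes fell). In control cells alone 0 fell and 0 rose, with a median of 0.21 (0.138% of all genes fell). The 8 neuron markers summed to 66.3 and 72.9 in SN_NFIA, 206 and 87.0 in SN_control, 133 and 117 in PN_NFIA, and 175 and 172 in PN_control arrays. Endoderm markers summed to between 6.84 and 18.4 on an array, and Apoa1 among them was not well above background on any array. The part of these cell types in the results below was not tested, and in bulk RNA fewer dividing cells and less RNA of these genes per cell cannot be told apart.

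The first comparison asked how the genes differ between secondary and primary neurospheres over both cell types. The genes of all 3 roles were lower in secondary neurospheres. Of the 41 tested genes, 25 fell and 0 rose at an adjusted p under 0.05 (limma, Benjamini-Hochberg over all 13782 genes), while 7.29% of all genes passed in either direction, 3.87% falling and 3.42% rising. All 41 differences, SN minus PN, were below 0, as were 57.4% of those of all genes. Their median was -0.92 on the log2 scale (a 1.9-fold lower signal), against -0.08 for all genes, and they ran between -1.40 for Mcm3 and -0.37 for Cdk4. By role, 3 of 8 G1 genes, 8 of 15 replication genes and 14 of 18 mitosis genes fell, with median differences of -0.58, -0.94 and -0.99. In 20 of 41 genes every SN array lay below every PN array, which held for 8.0% of all genes. The 13 reference genes used to check scaling had a median difference of -0.03, and 0 passed. They ran between -0.64 ± 0.22 for Gapdh and 0.42 ± 0.21 for Gusb, and 2 had an unadjusted p under 0.05 (26.3% of all genes). In control cells alone their passage median was -0.31, with 9 of 13 below 0 (60.5% of all genes), and in NFIA cells it was -0.15.

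These calls depend on the array assignment and on single arrays. With arrays assigned by the attached files, 0 of 41 genes passed (0.0% of all genes), 6 differences were below 0 and the median was 0.15. With the value table's assignment all 41 differences stayed below 0 whichever array was left out, but the calls changed, as did those over all genes. Of the 41 genes 0 passed without PN_control 1 (0.863% of all genes), PN_control 2 (1.12%), PN_NFIA 1 (0.421%) or SN_NFIA 1 (1.73%). Without SN_NFIA 2, 1 passed (2.03%), and without PN_NFIA 2, 6 passed (2.07%). Without SN_control 2, 17 passed (5.12%), and without SN_control 1, 21 passed (12.1%). Without both NFIA arrays that have a WT source name, 0 passed (0.0% of all genes) and the median was -0.82.

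**Figure D2:**
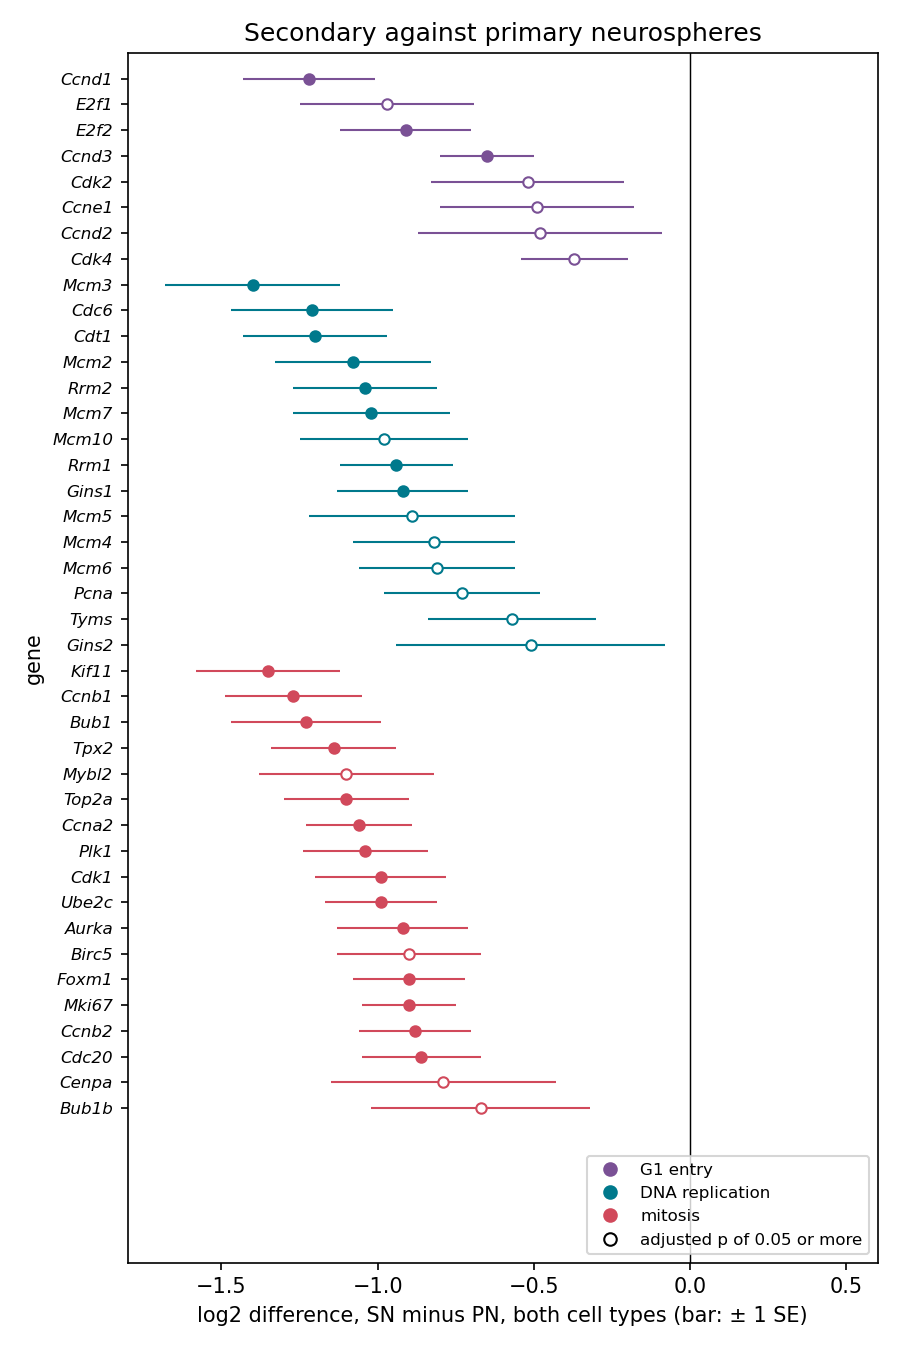
Log2 difference between secondary and primary neurospheres (SN minus PN, both cell types) for the 41 tested genes, ordered by role and size, with bars of 1 SE; filled points passed the test. All 41 points lie left of 0, and the filled ones number 3 in G1 entry, 8 in DNA replication and 14 in mitosis.

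**Figure D3:**
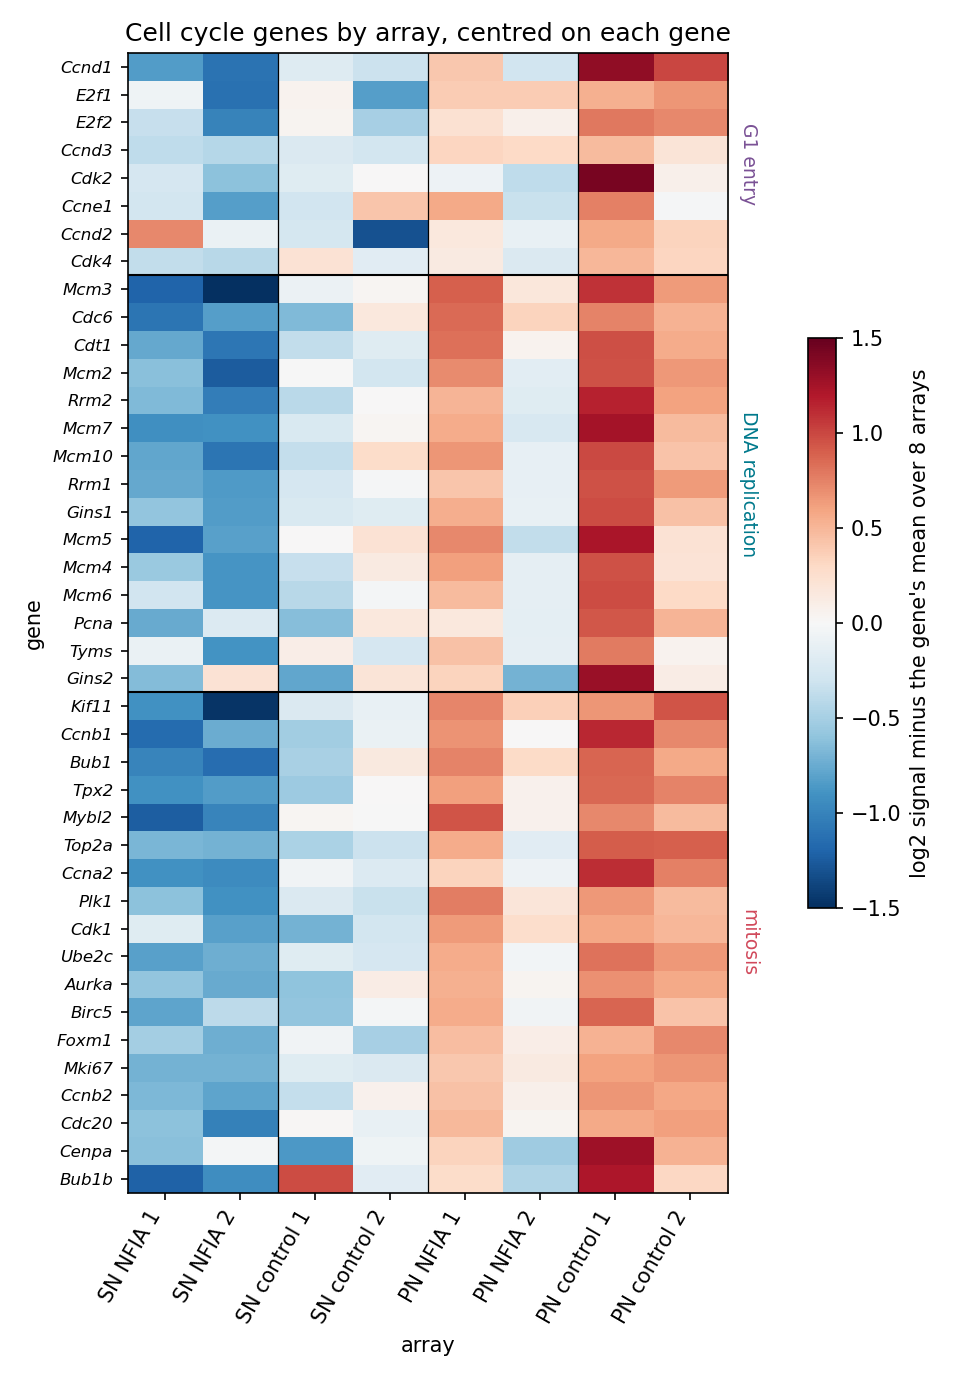
Signal of each of the 41 tested genes on each of the 8 arrays, in log2 minus the gene's mean over the arrays, with colours capped at 1.5 either way and genes ordered by role and passage difference. The SN_NFIA columns are mostly blue (lower) and the PN_control columns are red (higher) for nearly every gene.

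Among the genes of G1 entry, all values below are log2 of the signal over the 75th percentile of the array. Ccnd1 encodes cyclin D1, the D-type cyclin best known as a target of growth factor signals. Ccnd1 stood at 2.07 and 1.80 in SN_NFIA, 2.71 and 2.58 in SN_control, 3.31 and 2.62 in PN_NFIA, and 4.23 and 3.90 in PN_control arrays. It fell with passage by 1.22 ± 0.21 (2.34-fold, adjusted p = 0.0239). The SN_NFIA arrays were the lowest and the PN_control arrays the highest, and PN_NFIA 2 lay within the range of the SN_control arrays.

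Ccnd3, cyclin D3, had 4.42 and 4.38 in SN_NFIA, 4.59 and 4.53 in SN_control, 5.13 and 5.10 in PN_NFIA, and 5.28 and 5.0 in PN_control arrays. Every SN array lay below every PN array, with a passage difference of -0.65 ± 0.15 (adjusted p = 0.0432). E2f2, a transcription factor that activates S-phase genes, read 1.35 and 0.69 in SN_NFIA, 1.73 and 1.19 in SN_control, 1.92 and 1.77 in PN_NFIA, and 2.48 and 2.42 in PN_control arrays. Its passage difference was -0.91 ± 0.21 (adjusted p = 0.0432), again with no overlap between SN and PN arrays.

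Ccnd2, cyclin D2, behaved otherwise among the D-type cyclins. It measured 4.18 and 3.36 in SN_NFIA, 3.19 and 2.15 in SN_control, 3.61 and 3.35 in PN_NFIA, and 4.03 and 3.79 in PN_control arrays. The NFIA arrays were above the control arrays in secondary neurospheres and below them in primary neurospheres. The passage difference of Ccnd2 was -0.48 ± 0.39 over both cell types (adjusted p = 0.479), with -1.24 ± 0.42 in control cells and 0.29 ± 0.42 in NFIA cells.

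E2f1, the best studied E2F activator, read 1.56 and 0.50 in SN_NFIA, 1.68 and 0.80 in SN_control, 2.0 and 2.0 in PN_NFIA, and 2.16 and 2.28 in PN_control arrays. The SN and PN arrays of E2f1 did not overlap, but the difference of -0.97 ± 0.28 did not pass (adjusted p = 0.0758). Cdk4, the kinase partner of D-type cyclins, read 6.62 and 6.57 in SN_NFIA, 7.20 and 6.82 in SN_control, 7.12 and 6.77 in PN_NFIA, and 7.49 and 7.31 in PN_control arrays. Its difference of -0.37 ± 0.17 did not pass (adjusted p = 0.214). Cdk2, the kinase of E-type cyclins, read -1.54 and -1.91 in SN_NFIA, -1.47 and -1.29 in SN_control, -1.37 and -1.67 in PN_NFIA, and 0.13 and -1.21 in PN_control arrays. PN_control 1 alone was above 0, and the other 7 arrays lay between -1.91 and -1.21. Neither Cdk2 (-0.52 ± 0.31, adjusted p = 0.336) nor cyclin E1, Ccne1 (-0.49 ± 0.31, adjusted p = 0.347), passed the passage test.

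Among the replication genes, Mcm3, a subunit of the MCM helicase, showed the widest passage difference. Its arrays read 1.64 and 1.31 in SN_NFIA, 2.75 and 2.87 in SN_control, 3.74 and 3.01 in PN_NFIA, and 3.93 and 3.48 in PN_control arrays. Mcm3 fell with passage by 1.40 ± 0.28 (2.63-fold, adjusted p = 0.031), and no SN array reached a PN array. Its window, printed above, holds E2F words near the gene's start.

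The 2 factors that load the helicase onto origins behaved alike in direction. Cdt1 had 2.53 and 2.22 in SN_NFIA, 2.93 and 3.12 in SN_control, 4.13 and 3.36 in PN_NFIA, and 4.27 and 3.86 in PN_control arrays. Its passage difference was -1.20 ± 0.23 (adjusted p = 0.0273). Cdc6, its partner in loading, had -2.03 and -1.76 in SN_NFIA, -1.59 and -0.77 in SN_control, -0.08 and -0.60 in PN_NFIA, and -0.19 and -0.41 in PN_control arrays, with a difference of -1.21 ± 0.26 (adjusted p = 0.0366). In both genes every SN array lay below every PN array, and the lowest arrays were those of SN_NFIA.

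Of the other helicase subunits, Mcm2 read 1.37 and 0.75 in SN_NFIA, 2.0 and 1.73 in SN_control, 2.71 and 1.84 in PN_NFIA, and 2.96 and 2.65 in PN_control arrays. Mcm7 read 3.98 and 4.0 in SN_NFIA, 4.68 and 4.93 in SN_control, 5.46 and 4.66 in PN_NFIA, and 6.15 and 5.38 in PN_control arrays. Both fell, with differences of -1.08 ± 0.25 for Mcm2 (adjusted p = 0.0448) and -1.02 ± 0.25 for Mcm7 (adjusted p = 0.0495). In each gene PN_NFIA 2 was not above both SN_control arrays. Mcm4, Mcm5 and Mcm6 had differences of -0.82, -0.89 and -0.81 and did not pass, with adjusted p between 0.0901 and 0.134. The same held for Mcm10, a helicase activator (-0.98 ± 0.27, adjusted p = 0.0653).

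Gins1, a subunit of the GINS complex that activates the helicase, read 1.27 and 1.03 in SN_NFIA, 1.63 and 1.68 in SN_control, 2.41 and 1.75 in PN_NFIA, and 2.84 and 2.30 in PN_control arrays. It fell by 0.92 ± 0.21 (adjusted p = 0.0423), with no overlap between SN and PN arrays. Gins2, of the same complex, had a difference of -0.51 ± 0.43 and did not pass (adjusted p = 0.487).

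The 2 subunits of ribonucleotide reductase, which makes the deoxynucleotides for DNA synthesis, both fell. Rrm1 read 2.76 and 2.68 in SN_NFIA, 3.28 and 3.51 in SN_control, 3.94 and 3.40 in PN_NFIA, and 4.48 and 4.17 in PN_control arrays, a passage difference of -0.94 ± 0.18 (adjusted p = 0.029). Rrm2 read 4.32 and 3.94 in SN_NFIA, 4.58 and 4.99 in SN_control, 5.49 and 4.80 in PN_NFIA, and 6.13 and 5.58 in PN_control arrays, a passage difference of -1.04 ± 0.23 (adjusted p = 0.0399). In both genes PN_NFIA 2 lay within the range of the SN_control arrays, and the SN_NFIA arrays were the lowest. Pcna, the sliding clamp of DNA polymerases (-0.73 ± 0.25, adjusted p = 0.12), and Tyms, thymidylate synthase (-0.57 ± 0.27, adjusted p = 0.224), did not pass.

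Among the mitosis genes, the cyclins and their kinase all fell with passage. Ccna2, cyclin A2, which acts in S phase and on entry into mitosis, read 1.98 and 1.94 in SN_NFIA, 2.84 and 2.68 in SN_control, 3.22 and 2.81 in PN_NFIA, and 3.99 and 3.64 in PN_control arrays. It fell with passage by 1.06 ± 0.17, with the smallest adjusted p of the 41 genes (0.021). Within each passage the NFIA arrays of Ccna2 were all below the control arrays.

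Ccnb1, the main mitotic cyclin, read 3.16 and 3.57 in SN_NFIA, 3.79 and 4.21 in SN_control, 4.99 and 4.32 in PN_NFIA, and 5.44 and 5.03 in PN_control arrays. Its passage difference was -1.27 ± 0.22 (2.40-fold lower, adjusted p = 0.0248). Ccnb2, the second B-type cyclin, read 3.14 and 3.03 in SN_NFIA, 3.46 and 3.88 in SN_control, 4.26 and 3.90 in PN_NFIA, and 4.48 and 4.40 in PN_control arrays, with a difference of -0.88 ± 0.18 (adjusted p = 0.0315). SN and PN arrays overlapped in neither B-type cyclin. Cdk1, their kinase, read 0.28 and -0.35 in SN_NFIA, -0.24 and 0.19 in SN_control, 1.1 and 0.73 in PN_NFIA, and 1.04 and 0.96 in PN_control arrays. Its passage difference was -0.99 ± 0.21 (adjusted p = 0.0343), while its NFIA and control arrays overlapped at both passages.

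Mki67 encodes the Ki-67 protein, widely used to mark dividing cells. Mki67 stood at 4.07 and 4.07 in SN_NFIA, 4.59 and 4.56 in SN_control, 5.18 and 4.91 in PN_NFIA, and 5.38 and 5.44 in PN_control arrays. It fell with passage by 0.90 ± 0.15 (1.87-fold, adjusted p = 0.0218), and the 4 SN arrays were all below the 4 PN arrays. Top2a, the topoisomerase that untangles replicated chromosomes, stood at 0.82 and 0.80 in SN_NFIA, 1.03 and 1.18 in SN_control, 2.06 and 1.34 in PN_NFIA, and 2.42 and 2.40 in PN_control arrays, a difference of -1.1 ± 0.20 (adjusted p = 0.0263). The SN arrays of Top2a, whose window holds CHR words and CCAAT boxes, did not overlap with the PN arrays either.

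Of the 3 spindle genes that follow, Kif11, the kinesin that pushes the spindle poles apart, had the widest difference. It read -1.25 and -1.81 in SN_NFIA, -0.56 and -0.46 in SN_control, 0.39 and 0.01 in PN_NFIA, and 0.32 and 0.60 in PN_control arrays. Its passage difference was -1.35 ± 0.23 (2.55-fold lower, adjusted p = 0.0237). The 2 SN_NFIA arrays lay well below the SN_control arrays. Tpx2, which activates Aurora A on the spindle, read 1.35 and 1.43 in SN_NFIA, 1.72 and 2.27 in SN_control, 2.88 and 2.33 in PN_NFIA, and 3.12 and 3.01 in PN_control arrays, with a difference of -1.14 ± 0.20 (adjusted p = 0.0243). Aurka, the Aurora A kinase itself, read 2.71 and 2.54 in SN_NFIA, 2.69 and 3.41 in SN_control, 3.83 and 3.34 in PN_NFIA, and 3.98 and 3.87 in PN_control arrays, with a difference of -0.92 ± 0.21 (adjusted p = 0.0432). The SN and PN arrays did not overlap in Kif11 and Tpx2, whereas SN_control 2 of Aurka was above PN_NFIA 2.

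Plk1, the polo-like kinase of mitotic entry, had 3.67 and 3.37 in SN_NFIA, 4.07 and 3.95 in SN_control, 5.05 and 4.46 in PN_NFIA, and 4.93 and 4.76 in PN_control arrays. It fell by 1.04 ± 0.20 with passage (adjusted p = 0.0287). Bub1, a kinase of the spindle checkpoint, had 0.54 and 0.39 in SN_NFIA, 1.04 and 1.67 in SN_control, 2.27 and 1.81 in PN_NFIA, and 2.40 and 2.10 in PN_control arrays, and its difference was -1.23 ± 0.24 (adjusted p = 0.0289). Neither gene's SN arrays reached its PN arrays. Bub1b, the checkpoint protein BUBR1, had -1.17 and -0.89 in SN_NFIA, 1.02 and -0.13 in SN_control, 0.32 and -0.41 in PN_NFIA, and 1.25 and 0.35 in PN_control arrays. Its difference of -0.67 ± 0.35 did not pass (adjusted p = 0.266), and SN_control 1 was second only to PN_control 1.

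Mitotic exit depends on the anaphase-promoting complex, with Cdc20 as its activator and Ube2c as its ubiquitin-conjugating enzyme. Cdc20 read 3.72 and 3.32 in SN_NFIA, 4.35 and 4.22 in SN_control, 4.82 and 4.37 in PN_NFIA, and 4.90 and 4.94 in PN_control arrays, a passage difference of -0.86 ± 0.19 (adjusted p = 0.041). Ube2c read 1.83 and 1.91 in SN_NFIA, 2.46 and 2.39 in SN_control, 3.20 and 2.60 in PN_NFIA, and 3.45 and 3.29 in PN_control arrays, a passage difference of -0.99 ± 0.18 (adjusted p = 0.0257). In both genes the group means ran SN_NFIA, SN_control, PN_NFIA and PN_control from low to high, with no overlap between SN and PN arrays.

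Foxm1, a transcription factor that activates mitosis genes, read -0.27 and -0.49 in SN_NFIA, 0.19 and -0.26 in SN_control, 0.71 and 0.34 in PN_NFIA, and 0.76 and 0.97 in PN_control arrays. It fell with passage by 0.90 ± 0.18 (adjusted p = 0.0315), without overlap. Mybl2, which encodes B-MYB, had a difference of -1.1 ± 0.28 and no overlap, and narrowly missed the threshold (adjusted p = 0.0568). Birc5, the survivin subunit of the chromosomal passenger complex (-0.90 ± 0.23, adjusted p = 0.0564), and Cenpa, the histone H3 variant of centromeres (-0.79 ± 0.36, adjusted p = 0.217), did not pass.

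Lists of other genes of both processes were set beside the members. They were chosen by name, with earlier results of these data known, and do not cover all genes of either process. Of 35 other replication genes tested, 9 fell with passage and 0 rose, with a median difference of -0.76. The 9 were Cdc45, Dbf4, Pold1, Pole, Lig1, Rfc5, Tk1, Uhrf1 and Chaf1b, with differences between -1.30 for Chaf1b, a chromatin assembly subunit, and -0.80 for Rfc5, a clamp loader subunit. Of 46 other mitosis genes, 26 fell and 0 rose, with a median of -0.97. Of all genes 3.87% fell and 3.42% rose, with a median of -0.08. Ccnf, cyclin F, had the widest of the differences past the test at -1.47 ± 0.18 (adjusted p = 0.0137), and Ndc80, a kinetochore protein, the narrowest at -0.77 ± 0.19 (adjusted p = 0.0495).

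The same passage contrast was taken within each cell type, with 2 arrays against 2. In NFIA cells 2 of the 41 genes fell (1.34% of all genes fell and 1.89% passed), and 30 had an unadjusted p under 0.05, as did 21.3% of all genes. The 2 were Mcm3, at -1.9 ± 0.33 (adjusted p = 0.0438), and Kif11, at -1.73 ± 0.29 (adjusted p = 0.0435). These 2 calls were not stable, and nor were the calls over all genes, 260 in the main fit. Without the filter on dim probes 0 of 41 passed (70 genes in all), and with the attached files 0 passed (0 in all). Without PN_control 1 or without PN_control 2, 0 passed (0 in all), and without SN_control 1 or without SN_control 2, 4 passed (751 in all). Leaving out an array of NFIA cells leaves 1 array on a side, so only sizes are given. With any 1 array left out, the median of the 41 genes ran between -1.26 and -0.71. The median of the 41 differences was -0.97 in NFIA cells, and 40 were below 0, Ccnd2 being the exception, against 53.2% of all genes. Both SN_NFIA arrays lay below both PN_NFIA arrays in 35 of 41 genes, against 31.2% of all genes. In control cells 0 of 41 genes passed limma's test (0.863% of all genes passed and 0.138% fell), 28 had an unadjusted p under 0.05 (13.5% of all genes), and all 41 differences were below 0 (60.5% of all genes) with a median of -0.92. Both SN_control arrays lay below both PN_control arrays in 36 of 41 genes, against 26.9% of all genes. Whether the passage effect differs between the 2 cell types is the same test as that of the NFIA effect between passages, given below.

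The second comparison set NFIA cells against control cells over both passages. The genes were lower in NFIA cells in 40 of 41 cases, against 55.4% of all genes, but 0 of 41 passed limma's test (1.95% of all genes passed, 0.189% falling and 1.76% rising). An unadjusted p under 0.05 was reached by 21 of the 41, against 17.7% of all genes. The median difference, NFIA minus control, was -0.50 (a 1.41-fold lower signal), against -0.05 for all genes. It was -0.43 for G1 entry, -0.50 for DNA replication and -0.51 for mitosis. In none of the 41 genes did all 4 NFIA arrays lie below all 4 control arrays, a split found in 2.24% of all genes.

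Ccna2 had the smallest adjusted p, with -0.80 ± 0.17 (adjusted p = 0.0651). With the replicate numbers as a block it passed, at -0.80 ± 0.12 (adjusted p = 0.0459), as did 2.56% of all genes. Ccnd1 followed with -0.91 ± 0.21 (adjusted p = 0.0823), and both genes had all NFIA arrays below all control arrays within each passage. Bub1b had the most negative estimate, -1.16 ± 0.35, with a wide error (adjusted p = 0.148). Among replication genes, Rrm1 had the smallest adjusted p (-0.67 ± 0.18, adjusted p = 0.124). Cdk1 (-0.05 ± 0.21) and Ccnd3 (-0.09 ± 0.15) had the differences nearest 0, and Ccnd2 was the exception above 0 at 0.34 ± 0.39 (adjusted p = 0.713). With arrays assigned by the attached files the median of the 41 genes was 0.04, and with groups taken from the source names it was 0.19. Without the 2 NFIA arrays that have a WT source name it was -0.60, with 0 genes past the test.

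In secondary neurospheres alone 0 of 41 genes passed (0.914% of all genes), 10 had an unadjusted p under 0.05 (15.1% of all genes), 38 were lower in NFIA cells (51.5% of all genes) and the median difference was -0.59. With the replicate block 3 passed, against 4.69% of all genes: Mcm3 at -1.33 ± 0.21 (adjusted p = 0.0457), Mcm5 at -1.13 ± 0.18 (adjusted p = 0.0459) and Ccnd2, higher in NFIA cells, at 1.1 ± 0.18 (adjusted p = 0.0483). Mcm5 read 1.88 and 2.26 in SN_NFIA, 3.09 and 3.30 in SN_control, 3.80 and 2.71 in PN_NFIA, and 4.30 and 3.29 in PN_control arrays, and its SN_NFIA arrays lay below all others. In primary neurospheres 0 of 41 passed (0.312% of all genes), 3 had an unadjusted p under 0.05 (9.56% of all genes), and all 41 were lower in NFIA cells (57.3% of all genes) with a median of -0.44. Taken pair by pair, NFIA minus control arrays of the same number, the median of the 41 genes was -0.40 and -0.76 in secondary and -0.33 and -0.55 in primary neurospheres. The difference was below 0 in all 4 pairs in 29 of 41 genes (70.7%), against 19.8% of all genes.

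Markers of other cell types were read in the same comparison. In secondary neurospheres 6 of 8 mesenchymal markers (median difference -0.45) and 5 of 8 pluripotent markers (median -1.34) were lower in NFIA cells, against 51.5% of all genes. In limma's test there the oligodendrocyte marker Mbp fell (-2.05 ± 0.30, adjusted p = 0.0414), against 0.435% of all genes. The endoderm marker Sox7 rose there, against 0.479% of all genes, from a low signal in SN_control arrays (-5.30 and -5.89). In primary neurospheres all 8 mesenchymal markers (median 1.86) and all 8 pluripotent markers (median 0.83) were higher in NFIA cells, and the mesenchymal sums of 18.1 and 19.7 in PN_NFIA stood above the 7.55 and 4.12 in PN_control arrays. In primary neurospheres 57.3% of all genes were lower in NFIA cells. Of the mesenchymal markers there, 8 had an unadjusted p under 0.05 (9.56% of all genes) and 0 passed limma's test. Astrocyte markers had medians of 2.10 in secondary and 1.04 in primary neurospheres, and neuron markers of -0.53 and -0.31. The part of these cell types in the NFIA differences of the 41 genes was not tested.

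**Figure D4:**
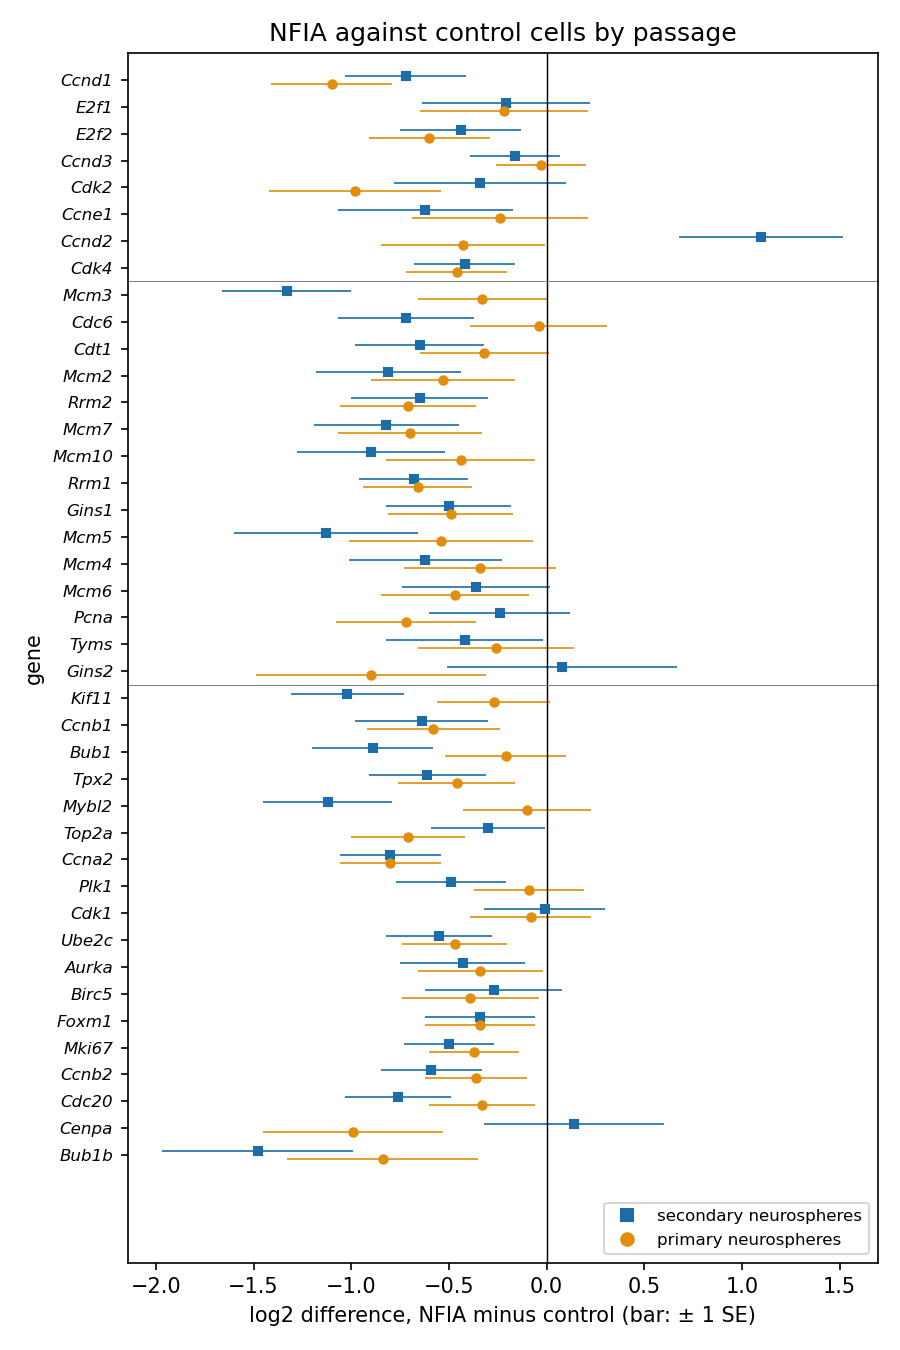
Log2 difference between NFIA and control cells for the 41 tested genes, in secondary (squares) and primary (circles) neurospheres, with bars of 1 SE; lines part the 3 roles. Most points lie left of 0 at both passages, and Ccnd2 stands at 1.1 in secondary neurospheres and -0.43 in primary neurospheres.

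The NFIA effect was then compared between passages. Of the 41 genes 0 passed the test of this difference, as did 0.0% of all genes, and 1 of 41 had an unadjusted p under 0.05, against 6.77% of all genes. That gene was Ccnd2, at 1.53 ± 0.60 (unadjusted p = 0.0375, adjusted p = 0.704). The median of the 41 differences was -0.09, and they ran between -1.03 and 1.53.

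Across the 4 groups the genes fell into a common order. Centred on each gene's mean, the median of the 41 genes was -0.68 and -0.83 in SN_NFIA, -0.23 and -0.10 in SN_control, 0.53 and -0.08 in PN_NFIA, and 0.87 and 0.52 in PN_control arrays. PN_control had the highest group mean in all 41 genes, against 38.8% of all genes, and SN_NFIA the lowest in 38 of 41, against 38.1%. The full order of group means from low to high, SN_NFIA, SN_control, PN_NFIA and PN_control, held in 35 of 41 genes (85.4%), against 16.6% of all genes, and in 5 of 8 G1, 14 of 15 replication and 16 of 18 mitosis genes. The neighbours SN_control and PN_NFIA were not set apart by their arrays, since PN_NFIA 2 (-0.08) lay next to SN_control 2 (-0.10). The 2 PN_NFIA arrays differed from each other: replicate 1 was above replicate 2 in 41 of 41 genes by a median of 0.59, against 53.2% of all genes. The gap between the PN_control arrays had a median of 0.31, with replicate 1 above in 36 of 41 genes, against 56.8% of all genes. In the SN_NFIA arrays replicate 1 was above in 28 of 41 genes (53.8% of all genes) and in the SN_control arrays in 16 of 41 (48.1% of all genes).

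**Figure D5:**
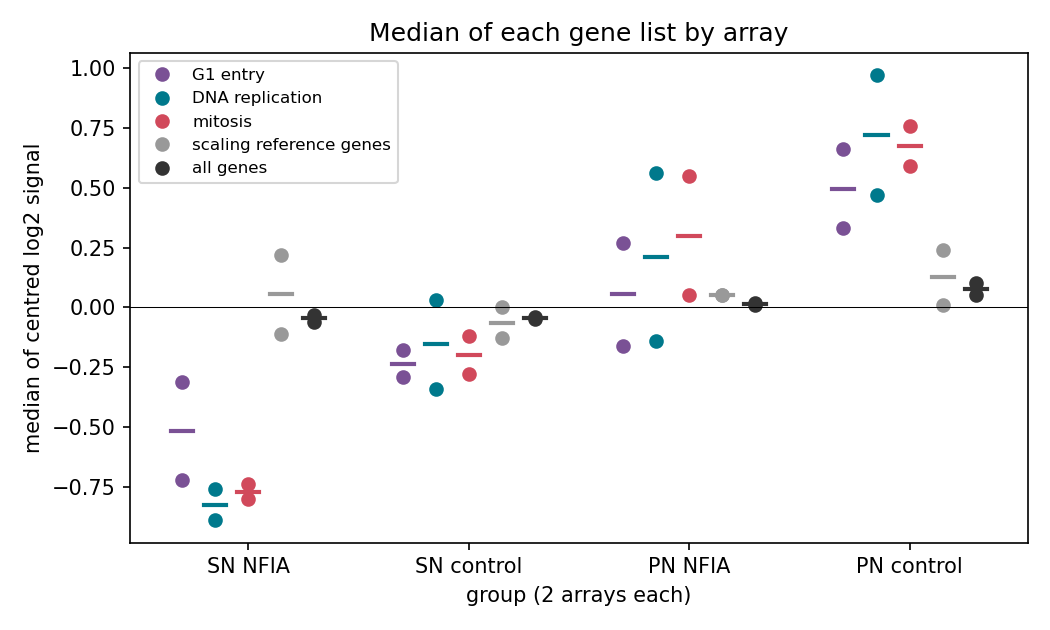
Median over the genes of each list of the log2 signal centred on each gene's mean, for each of the 2 arrays of a group (points) and their mean (bars). The 3 cell cycle roles run between -0.89 in SN_NFIA and 0.97 in PN_control arrays, while the reference genes stay between -0.13 and 0.24 and all genes between -0.06 and 0.10.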

How the data were processed

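RNA of sorted cells was hybridised to 8 Agilent 1-colour arrays on 1 slide. Spot intensity in the deposited scanner files is, per the file headers, background-subtracted by Feature Extraction 10.5.1.1 (per the submitters' processing notes, 10.7.3.1), beside deposited flags of another kind, 0 or 1, that mark outlier spots, saturated spots and spots well above background. The authors' deposited value table is in log2 units, and its numbers are those of signals scaled to each array's 75th percentile and centred on each probe's median (largest absolute median 0.000245). The correlation of each of its columns with its best scanner file was 0.9998 or more, and with any other 0.3347 or less, but 7 of 8 matched a file attached to another sample. Arrays were assigned by the value table, whose columns bear the sample titles.

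Signals were taken to log2 and each array's 75th percentile over the 59305 spots that are not controls was subtracted. A probe was kept if 1 or more of the groups had it well above background on both arrays, and outlier flags removed 126. Of 55681 probes, 26056 took a symbol from a transcript accession, and the brightest kept probe stood for each of 13782 genes. In 12 members with several kept probes, no other kept probe differed in sign over both cell types or both passages. Within a passage those of Cdk1 and Ccnd3 did for NFIA. No spot was saturated (0 of 59305).

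The tests were those of limma 3.58.1 (R 4.3.3), in an additive model of passage and NFIA over 8 arrays and in a model of 4 group means, with Benjamini-Hochberg adjustment over all genes and a threshold of 0.05. The procedure was tested on simulated data. Same-numbered NFIA and control arrays deviated together (r = 0.446 in primary and 0.483 in secondary neurospheres). The main tests did not use the numbers, and the replicate block, an alternative, took them as pairs within each passage for NFIA. Since deviations within a group of 2 arrays mirror each other, this pairing rests on 1 value per passage. Between passages the numbers did not deviate together (r = 0.043 in NFIA and -0.188 in control cells). For passage the replicate block still used a replicate term shared by both passages. The alternatives were the attached files, normexp background (offset 50, on median spot and background signals), quantile or median scaling, the value table itself, no filter on dim probes, the mean of a gene's probes, the replicate block, leaving out each array, and groups from the source names. The fits without the 2 NFIA arrays with a WT source name and with crossed numbers were chosen after seeing the data. Values on every array are given for members past the test, for those of each role with the smallest p in either main comparison, and for the D-type cyclins. The members and lists were chosen with earlier results of these data known. Promoter sequences are those of RefSeq (GRCm38.p6).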

Additional observations from a re-analysis of the deposited data

How the results depend on the processing

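The passage difference over both cell types kept its direction in all 41 genes under every alternative but the attached files. Of the 25 genes past the test (7.29% of all genes passed), 25 passed with normexp background (7.36%). With median scaling 19 passed (7.03%), and with quantile scaling 18 passed (6.63%). With the value table, the mean of a gene's probes and the replicate block 24 each passed (7.14%, 7.38% and 8.0%). That block shared its replicate term between passages, though same-numbered arrays did not deviate together between passages. Without the filter on dim probes, where more genes share the adjustment, 11 members and 487 genes passed. Without the 2 NFIA arrays with a WT source name 0 members and 0 genes passed (limma, 30 members at an unadjusted p under 0.05), and the median was -0.82.

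Leaving out 1 array at a time gave between 0 and 21 members and between 58 and 1669 genes past the passage test, with medians of -1.05 to -0.83. In control cells it gave 8 to 445 genes, 0 members and medians of -1.06 to -0.76, and in NFIA cells 0 to 751 genes, 0 to 4 members and medians of -1.26 to -0.71. For NFIA over both passages it gave 33 to 351 genes, 0 members and medians of -0.64 to -0.39. For NFIA it gave 5 to 457 genes and medians of -0.67 to -0.49 in secondary neurospheres, and 0 to 88 genes and medians of -0.71 to -0.17 in primary neurospheres, with 0 members in both. For the change of the NFIA effect with passage it gave 0 to 36 genes, 0 members and medians of -0.34 to 0.16. The NFIA difference of Ccnd2 ran between -0.02, without SN_control 2, and 0.54.

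With arrays assigned by the attached files, 0 genes and 0 members passed in any of the comparisons of passage or NFIA. Members' medians were then 0.15 for passage over both cell types, 0.09 in control and 0.15 in NFIA cells, and 0.04 for NFIA over both passages, 0.11 in secondary and -0.01 in primary neurospheres. Of the 41 passage differences 35 turned there and 6 stayed below 0, and of the 41 NFIA differences over both passages 27 turned. The passage differences that turned include 0.22 for Ccnd1, 0.18 for Ccnd2, 0.08 for Ccnd3, 0.02 for E2f2, 0.21 for Mcm2, 0.18 for Mcm3, 0.33 for Mcm7, 0.05 for Cdc6, 0.17 for Cdt1, 0.23 for Gins1, 0.13 for Rrm1 and 0.11 for Rrm2. Among mitosis genes they include 0.22 for Ccna2, 0.27 for Ccnb1, 0.06 for Mki67, 0.14 for Top2a, 0.05 for Tpx2, 0.15 for Plk1, 0.04 for Cdc20, 0.10 for Foxm1 and 0.23 for Ube2c. In NFIA cells Mcm3 was at 0.30 and Kif11 at 0.14. The NFIA differences that turned include 0.01 for Rrm1, 0.06 for Mcm7, 0.50 for Mcm3, 0.32 for Bub1b, 0.07 for Mki67, 0.04 for Ube2c, 0.07 for Ccnd3 and -0.76 for Ccnd2.

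With groups from the source names 0 genes passed and the members' median was 0.19. Differences then were 0.47 for Ccnd1, -0.04 for Ccnd2, 0.06 for Ccnd3, 0.19 for Cdk4, 0.46 for Cdk2, 0.52 for E2f2, 0.30 for Rrm1, 0.23 for Mcm7, 0.42 for Mcm3, 0.35 for Rrm2, 0.41 for Ccna2, 0.43 for Bub1b, 0.20 for Mki67, 0.11 for Ube2c and -0.25 for Nfia. All 4 arrays titled control count as NFIA there, so a turn in sign follows from the construction. With quantile scaling Ccnd3 was at 0.00 for NFIA.

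Some counts of genes past the test, over all genes, departed from those of the main fit. For NFIA over both passages, with 269 in the main fit, they were 143 without the dim filter and 67 without the 2 NFIA arrays with a WT source name. For NFIA in secondary neurospheres they were 203 with normexp, 22 without the dim filter, 647 with the replicate block and 0 with the 2 groups fitted alone. For NFIA in primary neurospheres they were 8 with normexp, 19 with quantile scaling, 0 without the dim filter, 69 with the replicate block and 140 with the 2 groups fitted alone. For passage they were 52 in control and 70 in NFIA cells without the dim filter, and 69 in control cells with crossed numbers. Members past the test in NFIA cells numbered 4 with normexp and 0 without the dim filter, and those past the NFIA test with the replicate block numbered 1 over both passages and 3 in secondary neurospheres. The cause of these changes was not tested. Cdk6, Ccne2 and Aurkb were limited by signal over background.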

Other observations

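Regulators around the E2F and RB pathway, which are not among the 44 genes, were read in the same passage comparison over both cell types. Of 18 other E2F and RB genes, 3 fell and 1 rose, with a median difference of -0.53, against 3.87% and 3.42% of all genes and a median of -0.08. Mycn, the MYC family member best known in neural progenitors, stood at 0.39 and -0.45 in SN_NFIA, 1.24 and 0.89 in SN_control, 2.01 and 1.71 in PN_NFIA, and 2.63 and 2.20 in PN_control arrays, in log2 of the signal over the 75th percentile. It fell by 1.62 ± 0.25 (adjusted p = 0.0196). Myc, its relative, rose by 1.37 ± 0.27 (adjusted p = 0.031), so the 2 genes moved in opposite directions. Myc stood at -0.16 and 0.29 in SN_NFIA, -0.96 and 0.01 in SN_control, -1.22 and -0.94 in PN_NFIA, and -1.78 and -2.35 in PN_control arrays. Tfdp2, a dimer partner of E2F factors (-1.28 ± 0.28, adjusted p = 0.0395), also fell. So did E2f4, an E2F of repressor complexes, which was not well above background on either SN_control array and is given no size.

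Of 7 CDK inhibitors, 2 fell and 1 rose with passage. Cdkn1a (-1.30 ± 0.20, adjusted p = 0.0193) and Cdkn1c (-1.47 ± 0.33, adjusted p = 0.0397) fell, in the same direction as the cyclins. Cdkn2b, an inhibitor of CDK4 and CDK6, read -0.45 and -0.61 in SN_NFIA, -3.36 and -2.30 in SN_control, -1.54 and -2.25 in PN_NFIA, and -5.68 and -6.55 in PN_control arrays. It was well above background on 5 of the 8 arrays, and not on SN_control 1 or either PN_control array, so no size is given. It was the 1 that rose with passage, and it also rose with NFIA over both passages and in primary neurospheres (1.76% and 0.312% of all genes rose).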
